A study of Mus musculus with 6 samples.

Results

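Described here are the 10 genes E2f1, E2f2, E2f3, E2f4, E2f6, E2f7, E2f8, Rb1, Rbl1 and Rbl2, which encode E2F transcription factors and the pocket proteins that bind them. They were chosen by name, matched to the Ensembl identifiers in the count table, and all 10 were found among the 26128 genes listed. Bulk RNA of CD4-CD8- double negative T (DNT) cells was sequenced in 6 libraries, 3 without and 3 with IL-33, a cytokine of the IL-1 family that acts through the receptor ST2. In the control group, DNT cells were stimulated with anti-CD3/CD28 beads for 48 h. In the IL-33 group they received the same beads together with IL-33 at 50 ng/ml for 48 h. Cells of both groups came from CD4+ T cells of adult wild type C57BL/6 mice, were converted in vitro with allogeneic mature dendritic cells and IL-2, and were sorted as CD3+NK1.1-CD4-CD8- before stimulation. The labels name spleen as the tissue, whereas the study's methods name spleen and lymph nodes and a starting population without CD25. Both groups are thus DNT cells made in culture, and neither group was left without beads. Neither the labels nor the study's methods say whether the 3 libraries of a group came from separate mice or cultures, so the p-values measure the spread between these samples, which may be technical.

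E2F factors bind DNA with a dimer partner and set the transcription of genes for DNA replication and cell division. E2f1, E2f2 and E2f3 are the activators. E2f4 acts mainly as a repressor when bound to a pocket protein, and E2f6 represses with Polycomb proteins and without any pocket protein. The others, E2f7 and E2f8, are atypical E2Fs that bind DNA without a dimer partner and repress the activators' targets. The pocket proteins Rb1 (RB), Rbl1 (p107) and Rbl2 (p130) hold E2Fs inactive until cyclin-dependent kinases phosphorylate them. Several of these genes, such as E2f1, E2f2, E2f7, E2f8 and Rbl1, are themselves E2F targets whose RNA is raised in dividing T cells.

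Libraries held 20256342 to 22336050 counts, so that 3 counts corresponded to 0.135 to 0.148 counts per 1000000 counts of the library (CPM). The 10 genes marking T cells summed to 3489 to 3634 CPM in control and 3566 to 3716 CPM in IL-33 libraries. Of the 4 genes for proteins that the sort selected against, Cd4 lay at 0.934 ± 0.183 CPM (SD, n = 3) in control and 0.373 ± 0.143 in IL-33 libraries. Cd8a, whose RNA was not absent although the cells were sorted as CD8-, lay at 545 ± 13.6 and 400 ± 9.15 CPM. The others, Klrb1c, the NK1.1 gene, and Cd8b1, lay at 33.5 ± 2.57 and 9.68 ± 1.65 CPM in control and at 25.6 ± 1.15 and 16.3 ± 2.07 CPM in IL-33 libraries. Of 11 dendritic cell markers, 9 were listed, and their sum ran from 98.5 to 103 CPM in control and from 73.4 to 79.7 CPM in IL-33 libraries. Of these, Itgax lay at 54.6 ± 2.07 and 26 ± 1.59 CPM and H2-Ab1 at 24.8 ± 1.96 and 30.3 ± 1 CPM, and 6 were tested, with a median log2 fold change of 0.08 and 4 of the 6 above 0. H2-Aa lay at 0.379 ± 0.166 and 0.17 ± 0.0732 CPM, Siglech was at 0 in all control libraries, and Clec9a and Cd209a were not among the genes listed. Of 7 mast cell and basophil markers, 6 were listed and summed to 38.1 to 41 and 26.6 to 31.5 CPM. Most of that was Cma1 at 22 ± 1.88 and 17.9 ± 2.52, Cpa3 at 10.9 ± 2.04 and 7.1 ± 0.615 and Mcpt8 at 5.81 ± 0.714 and 4.32 ± 1.4 CPM. Fcer1a lay at 0.392 ± 0.161 and 0.0775 ± 0.134 CPM, and Ms4a2 and Tpsb2 were at 0 in all IL-33 libraries. All 4 NK cell markers were listed and summed to 372 to 375 and 348 to 366 CPM, nearly all of it Eomes, which T cells also express. The NK cell gene Ncr1 lay at 0.0478 ± 0.0471 and 0.106 ± 0.103 CPM, and 3 of 5 B cell markers were listed and summed to 4.79 to 5.7 and 5.3 to 6.35 CPM. The part of these levels in the results that follow was not tested.

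The start regions of the members were searched for letters that E2Fs and the cell cycle repressor complex DREAM are known to bind, because these complexes act there. RefSeq windows of 250 bases before to 50 bases after the start site (GRCm38.p6) were matched for 8 of the 10 genes, in 10 windows; E2f4 and Rb1 were not matched. The E2F words searched on both strands were TTTCCCGC, TTTGGCGC, TTTCGCGC and TTTGCCGC. One of them stood in 4 of the 10 windows, those of E2f2, E2f3, E2f7 and Rbl1, against 744 of 32851 windows of all genes (2.26%). The word TTTGAA of the cell cycle genes homology region (CHR), counted separately on both strands, stood in 4 of the 10 windows, of E2f2, E2f3, E2f8 and Rbl2, against 17.9% of all windows. For E2f2 the CHR word stood in another window, chr4:136180532-136180831 within the gene, and not in the window with its E2F word. The stretches below, written 5′ to 3′ along the gene's strand, are shown because E2F genes and a pocket protein gene themselves carry such words near their starts. They cover the 4 windows with an E2F word and the CHR word of E2f8, with the word in capitals; positions count from the start site to the leftmost base of the word.
E2f7, chr10:110745211-110745278, plus strand, E2F word at position -198: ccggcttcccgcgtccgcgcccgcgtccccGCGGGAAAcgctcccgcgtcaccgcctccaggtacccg
Rbl1, chr2:157204515-157204582, minus strand, E2F word at position -18: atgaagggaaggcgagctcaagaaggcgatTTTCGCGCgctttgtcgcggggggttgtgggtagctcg
E2f2, chr4:136172294-136172323, plus strand, E2F word at position 40: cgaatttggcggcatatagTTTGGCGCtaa
E2f3, chr13:29986037-29986104, minus strand, E2F word at position -11: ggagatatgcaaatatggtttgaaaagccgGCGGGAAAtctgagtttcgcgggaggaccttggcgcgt
E2f8, chr7:48881581-48881646, minus strand, CHR word at position -20: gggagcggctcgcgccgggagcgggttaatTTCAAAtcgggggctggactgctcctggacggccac
In E2f7 and E2f3 the E2F word, and in E2f8 the CHR word, lay on the opposite strand and is printed as its reverse complement, and the E2f3 stretch also holds the CHR word in lower case. The E2f7 stretch lies wholly upstream of the gene as GENCODE M21 places it, and so does that of E2f2, where RefSeq begins a transcript further upstream. Those of Rbl1, E2f3 and E2f8 run across the start site into the first exon. A match is a description of letters and not a measured binding site.

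With IL-33, 7 of the 10 genes were lower, 1 was higher and 2 were not called at an adjusted p under 0.05, all 10 having passed the filter on low counts. Calls came from edgeR's quasi-likelihood test, adjusted by the method of Benjamini and Hochberg. Of all 14671 genes tested, 13.9% were called lower and 13.6% higher. Lower were E2f1, E2f2, E2f6, E2f7, E2f8, Rbl1 and Rbl2, higher was E2f4, and E2f3 and Rb1 were not called. E2f2, E2f7 and E2f8 were also past a fold change of 1.5 (0.585 on the log2 scale), against 2.39% of all genes that were lower past both thresholds. All 3 IL-33 libraries lay below all 3 control libraries for 7 of the 10 genes, against 19.5% of all genes tested, and above them for 1, against 19.4%. The median log2 fold change was -0.35 over the 10 genes and -0.00063 over all genes tested. In bulk samples such as these, fewer cells that express a gene and less of its RNA per cell cannot be told apart.

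**Figure D1:**
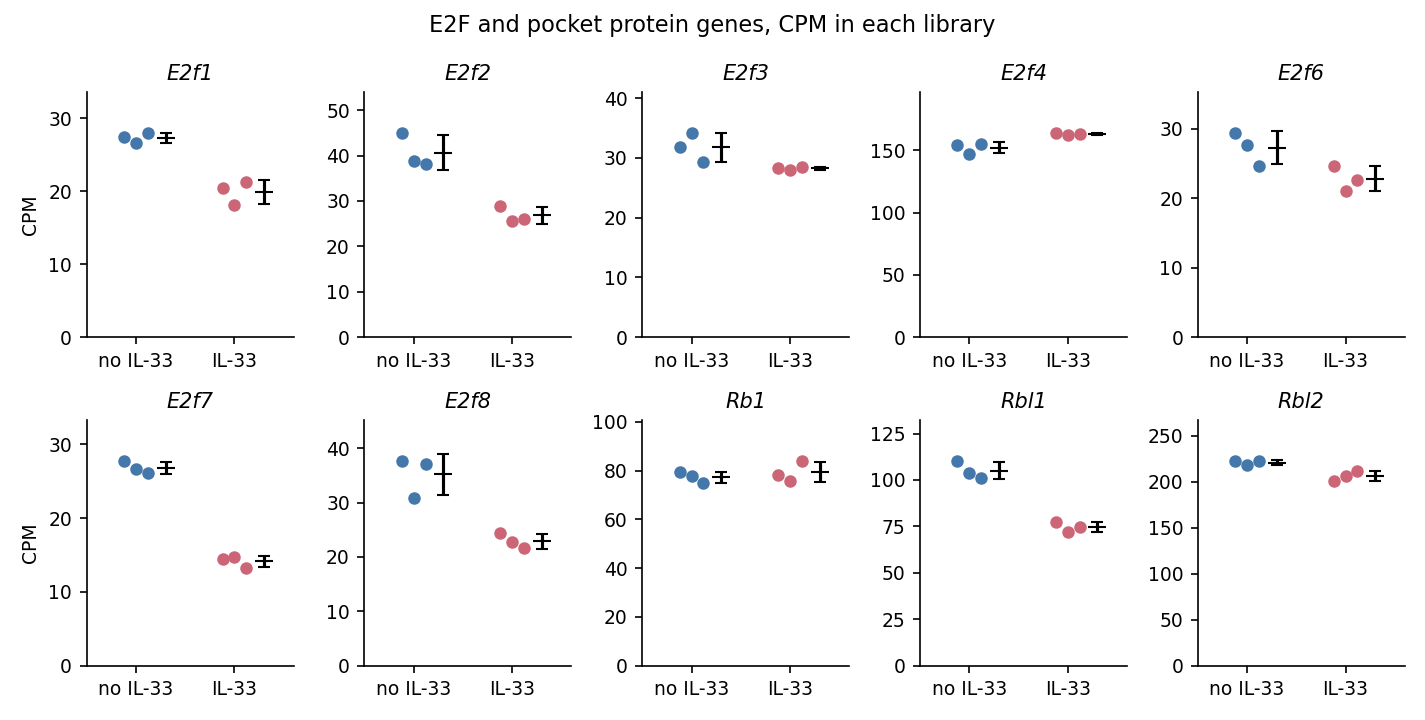
CPM of each of the 10 genes in the 6 libraries, control (no IL-33) and IL-33, a panel per gene with its own axis in CPM, points for libraries and bars for the mean and SD (n = 3). The IL-33 libraries of E2f1, E2f2, E2f3, E2f7, E2f8, Rbl1 and Rbl2 all sit below the control libraries, those of E2f4 above them, and those of E2f6 and Rb1 overlap with them.

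Among the activators, E2f1 (ENSMUSG00000027490, chromosome 2, 154559407 to 154569892, GRCm38), which drives entry into S phase, was at 27.4, 26.6 and 28 CPM in control libraries 1, 2 and 3 and at 20.4, 18.1 and 21.3 CPM in IL-33 libraries 1, 2 and 3. Every IL-33 library was therefore lower than every control library, and the mean fell from 27.3 ± 0.704 to 20 ± 1.65 CPM, which is 26.9% in the fitted model. Its log2 fold change was -0.45 (SE 0.080, 95% interval -0.61 to -0.29), with an adjusted p of 2.3e-06 in edgeR's quasi-likelihood test. The values rested on 380 to 613 counts per library, and the log2 fold change lay between -0.50 and -0.39, still called, when any 1 library was left out.

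E2f2 (ENSMUSG00000018983, chromosome 4, 136172394 to 136196057), an activator best known in lymphocytes, was the activator with the largest change. Its control libraries held 45, 38.7 and 38.1 CPM and its IL-33 libraries 29, 25.5 and 26.1 CPM, with no overlap and with control library 1 above the other two. The mean went from 40.6 ± 3.84 to 26.9 ± 1.84 CPM, a log2 fold change of -0.59 (SE 0.069, 95% interval -0.73 to -0.46, adjusted p = 6.9e-12 in edgeR's quasi-likelihood test). Its place past the fold change of 1.5 was narrow: the log2 fold change was -0.51 without control library 1, -0.56 without IL-33 library 2 and -0.57 without IL-33 library 3.

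E2f3 (ENSMUSG00000016477, chromosome 13, 29906575 to 29986063), the remaining activator, was at 31.8, 34.2 and 29.3 CPM in control and at 28.3, 28 and 28.5 CPM in IL-33 libraries. The groups did not overlap, but their gap was small beside the spread of the control libraries, 31.8 ± 2.43 against 28.3 ± 0.222 CPM. A log2 fold change of -0.17 (SE 0.071, 95% interval -0.31 to -0.03) gave an unadjusted p of 0.0192 and an adjusted p of 0.0652 in edgeR's quasi-likelihood test, so that E2f3 was not called. It passed without control library 3 (adjusted p = 0.0259) and with scaling by total counts alone (adjusted p = 0.0384), and over 13 alternatives the adjusted p ran from 0.0259 to 0.339.

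Of the genes for repressors that carry a dimer partner, E2f4 (ENSMUSG00000014859, chromosome 8, 105297663 to 105305370) was the one member called higher. It was at 154, 147 and 155 CPM in control and at 164, 162 and 163 CPM in IL-33 libraries, so the groups did not overlap. The mean moved from 152 ± 4.3 to 163 ± 1.08 CPM, a log2 fold change of 0.10 (SE 0.037, 95% interval 0.03 to 0.17, adjusted p = 0.0292 in edgeR's quasi-likelihood test). The call was lost without control library 2 (adjusted p = 0.18), without IL-33 library 1 (0.0743), with scaling by total counts alone (0.0817) and in DESeq2 (0.0518), and the log2 fold change stayed between 0.08 and 0.11 over the 13 alternatives.

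E2f6 (ENSMUSG00000057469, chromosome 12, 16810963 to 16839742), the Polycomb partner, was at 29.4, 27.7 and 24.7 CPM in control and at 24.7, 21.1 and 22.6 CPM in IL-33 libraries. Here the lowest control and the highest IL-33 library met. The mean went from 27.2 ± 2.38 to 22.8 ± 1.84 CPM, with a log2 fold change of -0.25 (SE 0.079, 95% interval -0.41 to -0.10, adjusted p = 0.00881 in edgeR's quasi-likelihood test). Without control library 1 the adjusted p was 0.0927 and without IL-33 library 2 it was 0.0893, with a log2 fold change of -0.20 in either case.

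Both atypical E2Fs fell past both thresholds, and E2f7 (ENSMUSG00000020185, chromosome 10, 110745439 to 110787384) had the largest log2 fold change of the 10 genes. Control libraries of E2f7 held 27.7, 26.7 and 26.1 CPM and IL-33 libraries 14.4, 14.7 and 13.3 CPM, from 543 to 588 and from 296 to 310 counts. The groups lay far apart relative to their spread, with means of 26.9 ± 0.788 and 14.1 ± 0.724 CPM, and the fitted level was 47.4% lower. E2f7 had a log2 fold change of -0.93 (SE 0.087, 95% interval -1.10 to -0.75, adjusted p = 2.9e-16 in edgeR's quasi-likelihood test). It was the only one of the 10 that passed a test against the fold change of 1.5 itself (glmTreat in edgeR, adjusted p = 0.00325). E2f7 shares 86 exon bases with the antisense gene 1700020G17Rik, which had 437 counts over the 6 libraries. The use of strand is not given in the sources consulted, so that reads of these bases cannot be told apart.

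E2f8 (ENSMUSG00000046179, chromosome 7, 48866429 to 48881596), which acts together with E2f7 on many of the same sites, was at 37.6, 30.9 and 37.2 CPM in control and at 24.4, 22.7 and 21.6 CPM in IL-33 libraries. No IL-33 library reached the lowest control library, number 2, which stood below the other two. The mean fell from 35.2 ± 3.77 to 22.9 ± 1.4 CPM, with a log2 fold change of -0.62 (SE 0.074, 95% interval -0.77 to -0.48, adjusted p = 1.5e-11 in edgeR's quasi-likelihood test). Leaving out control library 1 (-0.57), control library 3 (-0.58) or IL-33 library 3 (-0.58) put the log2 fold change under the 0.585 of the threshold, with the adjusted p still past its own. E2f8 shares 610 exon bases with Gm2788 on the other strand, which had 148 counts over the 6 libraries.

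**Figure D2:**
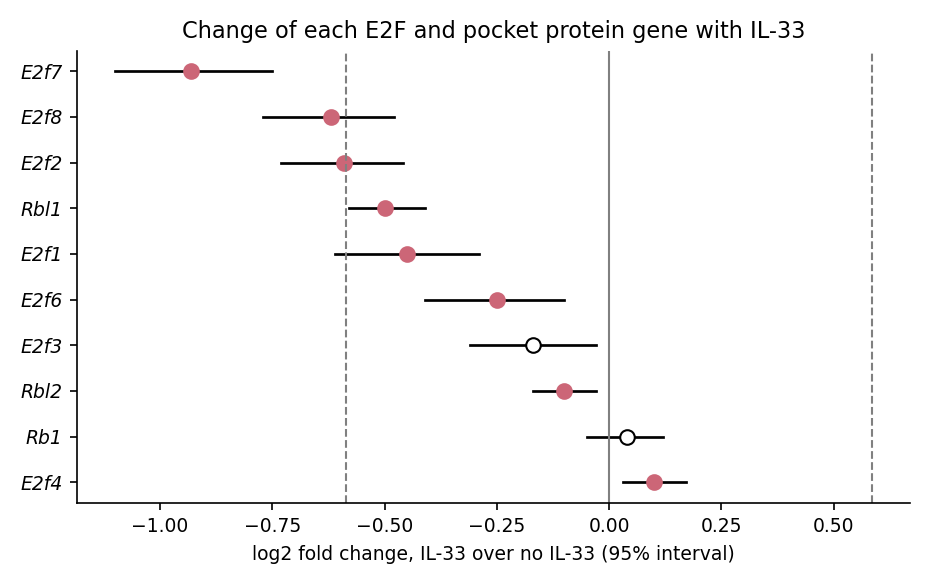
Log2 fold change of IL-33 over control for each of the 10 genes, with 95% intervals from edgeR's quasi-likelihood model and dashed lines at a fold change of 1.5 in either direction; filled points were called and open points were not. E2f7 lies farthest from 0 at -0.93, E2f2 and E2f8 lie at the lower line, and the intervals of E2f4 and Rb1 lie at 0.03 to 0.17 and at -0.05 to 0.12.

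The 3 pocket protein genes differed among themselves. Rb1 (ENSMUSG00000022105, chromosome 14, 73183673 to 73325822), the retinoblastoma protein that binds the activators, was at 79.4, 77.7 and 74.9 CPM in control and at 78.3, 75.9 and 83.8 CPM in IL-33 libraries. The groups overlapped, with means of 77.4 ± 2.28 and 79.3 ± 4.06 CPM. The log2 fold change of 0.04 (SE 0.044, adjusted p = 0.59 in edgeR's quasi-likelihood test) had a 95% interval of -0.05 to 0.12. Rb1 shares 488 and 408 exon bases with Rcbtb2 and Lpar6 on the other strand, which had 4135 and 1867 counts over the 6 libraries.

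Rbl1 (ENSMUSG00000027641, chromosome 2, 157145893 to 157204534) encodes p107, the pocket protein made mainly in cycling cells. Its libraries held 110, 104 and 101 CPM in control and 77.1, 71.9 and 74.5 CPM with IL-33, the largest of which was well below the lowest control library. The mean fell from 105 ± 4.23 to 74.5 ± 2.61 CPM, which is 29.1% in the fitted model, with a log2 fold change of -0.50 (SE 0.043, 95% interval -0.58 to -0.41, adjusted p = 2.7e-18 in edgeR's quasi-likelihood test). With 1507 to 2327 counts per library, Rbl1 had the smallest adjusted p of the 10 genes, and leaving out any 1 library kept its log2 fold change between -0.52 and -0.46.

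Rbl2 (ENSMUSG00000031666, chromosome 8, 91070057 to 91123844) encodes p130, the pocket protein of resting cells and of the DREAM complex. Control libraries of Rbl2 held 222, 218 and 222 CPM, above the 201, 206 and 211 CPM of the IL-33 libraries. The difference was small, 221 ± 2.64 against 206 ± 4.8 CPM, with a log2 fold change of -0.10 (SE 0.034, 95% interval -0.17 to -0.03, adjusted p = 0.0175 in edgeR's quasi-likelihood test). It was no longer called without control library 3 (adjusted p = 0.0609), IL-33 library 1 (0.126) or IL-33 library 2 (0.0558). Rbl2 shares 693 exon bases with Aktip and 892 with Gm45464 on the other strand, which had 1959 and 99 counts over the 6 libraries.

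To compare levels between genes, CPM was divided by the summed length of each gene's exons in GENCODE M21, in kb, without regard to which isoform was expressed. On this scale E2f4 had the highest level in control libraries, 62 ± 1.75 CPM per kb, followed by the pocket protein genes Rbl2 at 29.2 ± 0.349, Rbl1 at 17.5 ± 0.706 and Rb1 at 12.9 ± 0.379. E2f1 (8.66 ± 0.223) and E2f2 (8.31 ± 0.786) came next with overlapping libraries. Below them were E2f8 (6.48 ± 0.692) and E2f3 (5.86 ± 0.448), which also overlapped, then E2f6 (4.81 ± 0.421) and last E2f7 (2.98 ± 0.0874). In IL-33 libraries E2f4 remained first at 66.5 ± 0.44 and E2f7 last at 1.57 ± 0.0804 CPM per kb. Rb1 at 13.2 ± 0.674 and Rbl1 at 12.4 ± 0.436 CPM per kb now overlapped. The other neighbours with overlapping libraries were E2f1 (6.33 ± 0.524) with E2f2 (5.51 ± 0.377), E2f2 with E2f3 (5.21 ± 0.0408), and E2f8 (4.21 ± 0.257) with E2f6 (4.03 ± 0.324).

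**Figure D3:**
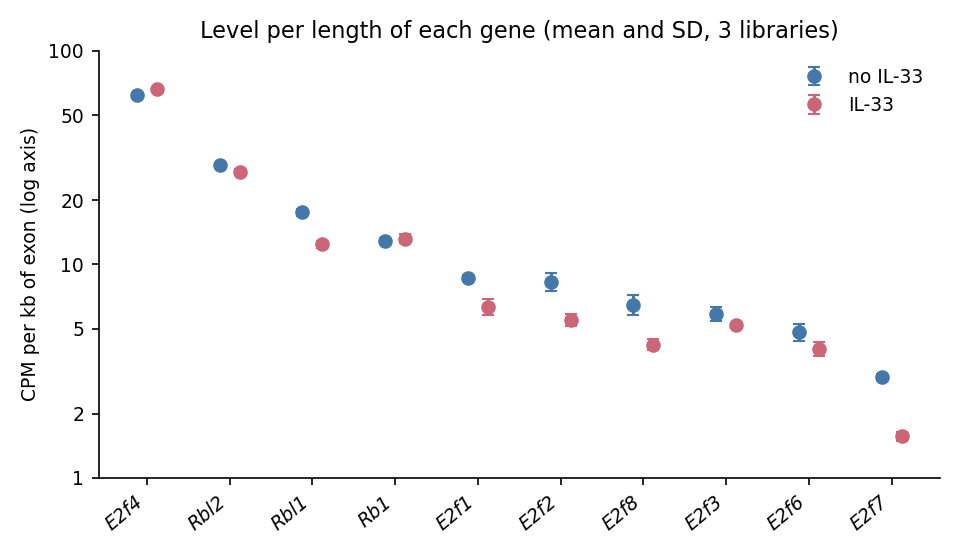
Level of each of the 10 genes in CPM per kb of exon on a log axis, as mean and SD of 3 libraries in control and IL-33 groups. E2f4 is highest and E2f7 lowest in both groups, and Rbl1 lies above Rb1 in control and beside it with IL-33.

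In a description added after the values were seen, the level of each gene was taken as a share of its family's summed CPM per kb. E2f4 made up 61.7% to 63.6% of the 7 E2F genes in control and 70.4% to 72% in IL-33 libraries, with no overlap. The share of E2f7 was 3.01% ± 0.0822 and 1.68% ± 0.0977. Among the 3 pocket protein genes, Rbl1 made up 29.4% ± 0.658 in control and 23.5% ± 0.855 with IL-33, Rb1 21.6% ± 0.347 and 24.9% ± 0.676, and Rbl2 49% ± 0.95 and 51.5% ± 0.908. Shares of a sum are not independent, so that a share can rise where the gene's own level does not.

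A pair of ratios within each library was compared between the groups. The log2 ratio of Rbl2 to Rbl1, in CPM per kb, was 0.68, 0.72 and 0.80 in control and 1.05, 1.18 and 1.17 in IL-33 libraries. These values did not overlap, and the means of 0.74 ± 0.060 and 1.13 ± 0.072 differed by 0.40 on the log2 scale. The log2 ratio of the activators E2f1, E2f2 and E2f3 together to the atypical E2f7 and E2f8 together was 1.25, 1.39 and 1.18 in control and 1.53, 1.48 and 1.67 in IL-33 libraries. Again the groups did not overlap, with means of 1.27 ± 0.106 and 1.56 ± 0.099 and a difference of 0.29. The two-sided exact permutation test gave p = 0.1 for either ratio, adjusted or not over the 2 ratios, which is the smallest value that 3 libraries against 3 allow.

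**Figure D4:**
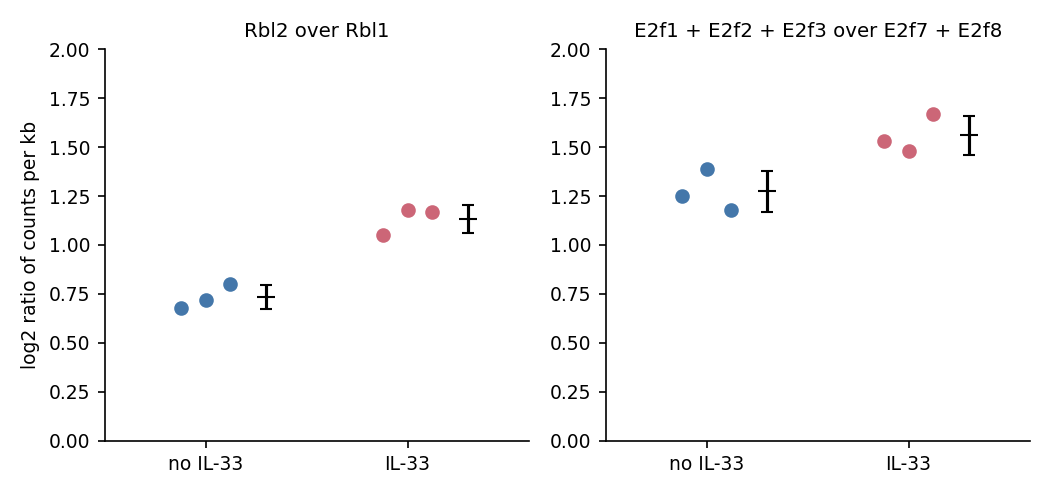
Log2 ratio in each library of Rbl2 to Rbl1 and of activator to atypical E2Fs, both from CPM per kb, with points for libraries and bars for the mean and SD (n = 3). All IL-33 libraries lie above all control libraries in both ratios, by 0.40 and 0.29 on average.

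Genes that act with the members were taken from lists, whose counts can be read beside the 13.9% of all genes called lower and the 13.6% called higher. The dimer partner Tfdp1, which pairs with the classical E2Fs, fell from 137 ± 5.43 to 114 ± 1.18 CPM (log2 fold change -0.27, adjusted p = 1.4e-08 in edgeR's quasi-likelihood test). The other partner gene, Tfdp2, was at 28.9 ± 3.25 and 26 ± 0.947 CPM and was not called (log2 fold change -0.15, adjusted p = 0.129).

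The MuvB core represses cell cycle genes with p107 or p130 and E2f4, and activates them with Mybl2 or Foxm1. Of 7 genes of this core and the factors that bind it, 3 were called lower (13.9% of all genes were) and none higher by edgeR or by DESeq2, and all 7 fitted log2 fold changes were below 0. Foxm1, a transcription factor of the G2 phase, fell from 61.9 ± 4.87 to 38 ± 1.02 CPM (log2 fold change -0.70, adjusted p = 1.6e-19), and Mybl2 from 34.4 ± 1.62 to 24.6 ± 1.59 CPM (-0.48, adjusted p = 2.2e-08). Rbbp4, a histone binding subunit that other complexes also hold, fell by less, from 196 ± 1.7 to 176 ± 2.28 CPM (log2 fold change -0.15, adjusted p = 2.1e-04). The subunits particular to MuvB, Lin9, Lin37, Lin52 and Lin54, had log2 fold changes from -0.26 to -0.06 and were not called. The median of the 7 genes was -0.23 on the log2 scale.

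In the E2F6 complex 2 of 10 genes were called lower, close to the 13.9% of all genes, and their median on the log2 scale was -0.05. They were the heterochromatin protein gene Cbx3 (120 ± 1.42 to 102 ± 2.17 CPM, log2 fold change -0.24, adjusted p = 7.7e-07) and the Polycomb gene Pcgf6 (10.6 ± 0.235 to 8.35 ± 1.03 CPM, -0.34, adjusted p = 0.0301). The call of Pcgf6 was lost without control library 2 (adjusted p = 0.0749), control library 3 (0.0786) or IL-33 library 1 (0.206) and in DESeq2 (0.0879).

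Genes for the kinases that phosphorylate pocket proteins and for the inhibitors of these kinases moved in both directions, with 5 of 14 called lower, 5 higher and a median log2 fold change of 0.003. The INK4 inhibitor genes Cdkn2a and Cdkn2b rose past both thresholds, as 2.47% of all genes did. Cdkn2a went from 11.4 ± 0.84 to 18.1 ± 0.697 CPM (log2 fold change 0.66, adjusted p = 8.8e-08) and Cdkn2b from 13.1 ± 1.06 to 20.9 ± 2.95 CPM (0.67, adjusted p = 2.1e-08). Counts were per gene, so that the transcripts of Cdkn2a cannot be told apart. Another INK4 gene, Cdkn2c, went the other way, from 54 ± 0.401 to 36.7 ± 0.638 CPM (log2 fold change -0.56, adjusted p = 4.0e-14). The inhibitor gene Cdkn1a was called higher, from 305 ± 5.54 to 401 ± 10.7 CPM (0.40, adjusted p = 1.8e-21 in edgeR's quasi-likelihood test). So was Cdkn1b (0.16, adjusted p = 5.9e-04), whereas Cdkn2d was not called. Among the cyclins, Ccne2, which activates Cdk2 at the start of S phase, fell from 18.7 ± 1.83 to 12.2 ± 0.556 CPM (log2 fold change -0.62, adjusted p = 2.9e-07). Also called lower were Ccne1 (-0.29) and the kinase genes Cdk2 (-0.36) and Cdk4 (-0.22), in log2 fold change, whereas Cdk6 was not called. The D-type cyclin gene Ccnd2, named after its values were seen, rose from 410 ± 16.3 to 452 ± 8.22 CPM (log2 fold change 0.14, adjusted p = 4.8e-05). Ccnd3 at 249 ± 5.67 and 244 ± 0.648 CPM was not called (adjusted p = 0.576). The lowest fitted value, -0.87 for Ccnd1, came from 1.11 ± 0.329 and 0.605 ± 0.361 CPM and was not called (adjusted p = 0.108).

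A short list of genes for ubiquitin ligase proteins of the cell cycle held 5 genes. All 5 were called lower, against 13.9% of all genes tested, with a median log2 fold change of -0.49. Ccnf, the F-box protein cyclin F that directs the breakdown of activator E2Fs, fell from 40.4 ± 3.52 to 27 ± 0.211 CPM (log2 fold change -0.58, adjusted p = 5.1e-12). Uhrf1 fell from 141 ± 8.64 to 100 ± 4.73 CPM (-0.49, adjusted p = 6.6e-18) and Cdc20 from 80.2 ± 6.29 to 58.1 ± 5.23 CPM (-0.46, adjusted p = 8.3e-08). Fzr1 fell by less, from 69.1 ± 3.51 to 58.7 ± 4.51 CPM (-0.23, adjusted p = 1.4e-04 in edgeR's quasi-likelihood test). Skp2, at 4.07 ± 1.14 and 2.51 ± 0.536 CPM, had a log2 fold change of -0.70 (adjusted p = 0.00705) that was not called without control library 1 (-0.44, adjusted p = 0.184), without IL-33 library 3 (-0.55, adjusted p = 0.0675) or in DESeq2 (adjusted p = 0.0545).

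The target genes of E2F factors at the G1/S transition were lower almost throughout. Of 46 such genes, 42 were called lower and 13 of these were past both thresholds, with a median log2 fold change of -0.46, which can be read beside the 13.9% and 2.39% of all genes. The largest change was that of Ung, the uracil glycosylase of replication repair, from 10.5 ± 0.679 to 5.11 ± 0.703 CPM (log2 fold change -1.04, adjusted p = 6.1e-10). Of the genes that load the replicative helicase, Cdc6 fell from 40.6 ± 3.41 to 24.2 ± 1.08 CPM (-0.74), Cdt1 from 46.9 ± 2.55 to 28.8 ± 1.9 CPM (-0.70) and Mcm2 from 150 ± 7.77 to 97 ± 1.32 CPM (-0.63). Rrm2, a subunit of ribonucleotide reductase, fell from 217 ± 7.37 to 142 ± 4.81 CPM (-0.62).

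Other genes of that list past both thresholds were Mcm10 (-0.61), Gins1 (-0.69), Pole (-0.59), Clspn (-0.60), Chek1 (-0.64), Ccne2 and Fen1, in log2 fold change. For Fen1 the value of -0.92 came from 14 to 48 counts per library, and the call was lost without control library 3 (-0.71, adjusted p = 0.189), without IL-33 library 2 (-0.74, adjusted p = 0.127) and in DESeq2 (adjusted p = 0.0897). The gene called higher was Msh6, a mismatch repair gene chosen here after its values were seen, at 93.5 ± 6.32 and 101 ± 2.26 CPM with overlapping libraries (log2 fold change 0.11, adjusted p = 0.0415 in edgeR's quasi-likelihood test). The call of Msh6 was lost in 7 of 13 alternatives, namely without control library 2 (adjusted p = 0.22), control library 3 (0.227), IL-33 library 1 (0.133) or IL-33 library 2 (0.0782), in DESeq2 (0.145), with total counts alone (0.0938) and without a filter on low counts (0.062).

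Genes of the G2 and M phases that MuvB complexes control were lower in all 28 of 28 cases, with log2 fold changes from -0.70 to -0.16 and a median of -0.48. All 28 were called lower, against 13.9% of all genes tested. For all 28 the IL-33 libraries lay below the control libraries, against 19.5% of all genes tested. Past both thresholds were Ccna2, the cyclin of S phase and G2, from 113 ± 7.32 to 73.6 ± 1.38 CPM (log2 fold change -0.61), and Prc1, which bundles the central spindle, from 69.1 ± 0.874 to 45.9 ± 2.01 CPM (-0.59). The others were the mitotic kinase gene Nek2 from 11.8 ± 1.16 to 7.85 ± 0.552 CPM (-0.59) and Foxm1. The proliferation marker Mki67 went from 503 ± 37.7 to 346 ± 7.21 CPM (log2 fold change -0.54, adjusted p = 1.7e-08 in edgeR's quasi-likelihood test). By contrast, the study reported more proliferation of DNT cells with IL-33 in vitro, by flow cytometry of Ki67 staining, which measures protein. How the RNA and protein results relate was not tested. Some genes stood in more than 1 list, among them Ccne1, Ccne2, Mybl2, Foxm1, Uhrf1 and Cdc20, so that the lists are not separate counts.

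**Figure D5:**
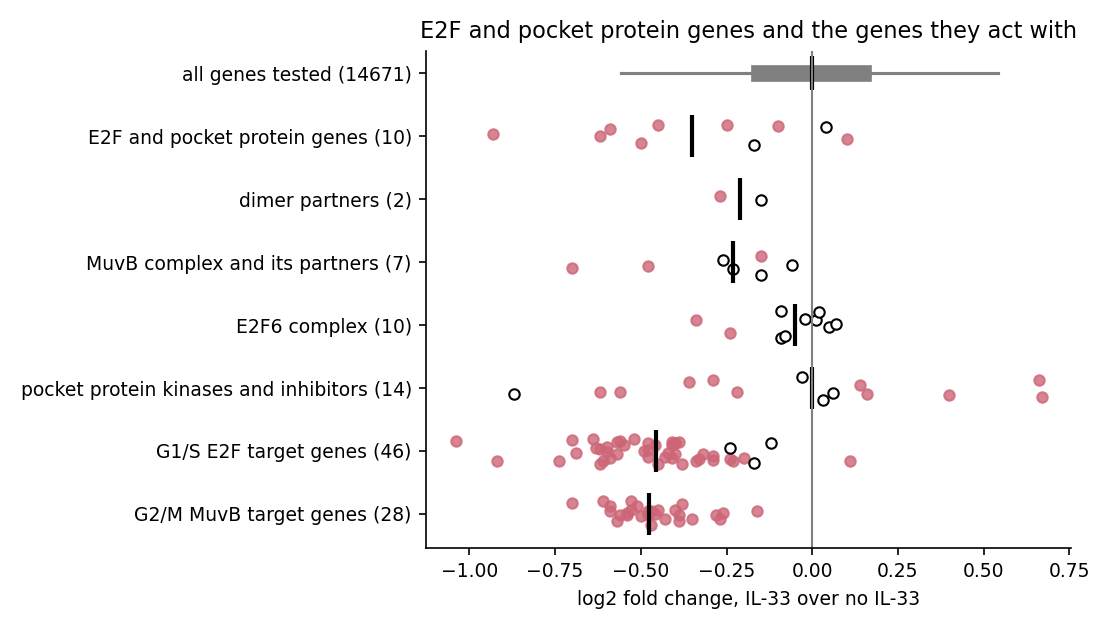
Log2 fold change of IL-33 over control for the genes of 7 lists, a point per gene and a bar at the median, beside all 14671 genes tested, drawn as their median with thick and thin lines for percentiles 25 to 75 and 5 to 95. Filled points were called at an adjusted p under 0.05 and open points were not. The G1/S and G2/M target genes gather around medians of -0.46 and -0.48, the genes for kinases and inhibitors spread to both sides of 0, and the 10 E2F and pocket protein genes run from -0.93 to 0.10.

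The words in the start regions were also set beside the change. Of the 39 genes of the G1/S list that matched a RefSeq window, 19 held an E2F word and 18 of these were called lower, as were 19 of the 20 without one. Among the members, those with an E2F word were called lower in 3 cases (E2f2, E2f7 and Rbl1) and not called in 1 (E2f3). Of those in whose windows the 4 words were not found, E2f1, E2f6, E2f8 and Rbl2 were all called lower. The E2f1 window, chr2:154569377-154569676 on the minus strand, lay wholly inside the gene as GENCODE M21 places it, up to 154569892. Bases before that GENCODE start of E2f1 were therefore not searched. All of these numbers are counts with no test, and the words cover only part of the letters that E2F proteins can bind.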

How the data were processed

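RNA-seq libraries of 3 control and 3 IL-33 samples were grouped by their labels. The authors deposited, per library, raw gene counts that had not been normalized. A deposited column of signal, an average over the libraries after division by size factors, was not used. The submitters' processing notes name Bowtie 0.12.2 and the genome build mm8 without a role; the counting program, annotation and use of strand were not given in the sources used here, and the labels and the study's methods name different library kits.

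From the counts, genes were filtered with filterByExpr (minimum count 10, minimum total 15), scaled by TMM and compared with edgeR's two-sided quasi-likelihood test (glmQLFTest after a robust glmQLFit without covariates). P-values were adjusted by the method of Benjamini and Hochberg over the 14671 genes kept. The thresholds were an adjusted p of 0.05 and a fold change of 1.5, and the fit's biological coefficient of variation was 0.0468. CPM is counts per 1000000 of the TMM scaled library total. Ratios were compared by an exact permutation test. The tools were edgeR 4.0.16, DESeq2 1.42.0 and limma 3.58.1 under R 4.3.3; the steps were tested on simulated data. Symbols matched 26072 of 26128 identifiers, and positions and exon lengths come from GENCODE M21 (GRCm38), matched by identifier for 26086 genes, not from the authors' build. Start regions come from RefSeq.

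The members and lists were chosen with earlier results of these data known. All 10 members are named, and of each other list the genes past both thresholds plus, up to 4, those called with the largest change; other genes are named where a statement rests on them, and 1 gene that this rule names is not reported here. Alternatives were other scalings, filters and tests, a replicate block, a test against the fold change, and leaving out each library. Totals of 20256342 to 22336050 counts per library set the precision, and no pair of libraries agreed within sampling noise. Limits set by 3 counts cover counting error only.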

Additional observations from a re-analysis of the deposited data

How the results depend on the processing

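Tested against a fold change of 1.5 itself (glmTreat in edgeR), 113 of all genes were called in place of 4036, 1 of the 10 E2F and pocket protein genes in place of 8, 1 of the 46 G1/S genes in place of 43, and 0 of the 19 partner genes, 0 of the 14 kinase and inhibitor genes and 0 of the 28 G2/M genes, of which 1, 0 and 1 had an unadjusted p under 0.05; without that threshold DESeq2 called 5, 10 and 28 of them. This alternative asks for a larger change by its construction. Under the other 13 alternatives the number of the 10 genes called ran from 6 to 8, with 8 under total counts alone, all of them lower, and 7 in DESeq2, and E2f1, E2f2, E2f7, E2f8 and Rbl1 kept their direction and call in each. Leaving out 1 library gave 3366 to 3664 genes called in all, 6 to 8 of the 10 genes, 39 to 43 of the G1/S genes, 26 to 28 of the G2/M genes, and differences of 0.37 to 0.44 for the log2 ratio of Rbl2 to Rbl1 and 0.23 to 0.34 for that of activator to atypical E2Fs. The log2 fold change of Rb1, not called in any of them, ran from -0.0026, reversed, without IL-33 replicate 3 to 0.07 without IL-33 replicate 2. Deviations of samples with the same replicate number correlated at 0.00109, -0.00884 and 0.0111 over 12960 genes, so that the values showed no pairing by number. They cannot tell whether such samples shared a mouse or culture, which is not given. A fit with a replicate block called 3798 genes and 8 of the 10, and the ratio differences stayed at 0.40 and 0.29 (exact sign-flip p = 0.25, the smallest possible). Other scalings moved the median of all genes to at most -0.018 on the log2 scale. Low counts limit Fen1, Skp2 and Ccnd1, and exon lengths summed over isoforms limit comparisons of level between genes.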

Other observations

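The E2F words searched in the start regions of the members were also counted over all genes tested that matched a RefSeq window, in a description added after the results were seen. Of 475 genes with such a word, 139 were called lower with IL-33 (29.3%) and 48 higher (10.1%), with a median log2 fold change of -0.07. Of 9594 genes without one, 1426 were called lower (14.9%) and 15.4% higher, with a median of 0.001. Leaving out the genes of all lists except those of cell type markers, 114 of 446 genes with a word were called lower (25.6%). Genes share regulation and are not replicates, so these shares carry no test. The CHR word TTTGAA stood in the windows of 1472 genes tested, of which 295 were called lower (20%), against 14.8% of 8597 genes without it. Called higher were 13.9% with and 15.3% without the CHR word, and the median log2 fold changes were -0.01 and -0.00063. With the same lists left out, 269 of 1442 genes with the CHR word were called lower (18.7%).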
